A study of Mus musculus with 32 samples.

Results

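The transcripts of 10 genes that the ERK pathway induces, most of which act back on it, were followed in mouse liver tumours treated with the kinase inhibitor regorafenib, with an antibody against the VEGF receptor VEGFR2, or with an antibody against the T cell checkpoint receptor PD1. The 10 genes were listed by name as a readout of RAF and receptor kinase inhibition, and they are 10 of the 54446 genes in the count tables. They are the dual specificity phosphatases Dusp4, Dusp5 and Dusp6, the Sprouty genes Spry1, Spry2 and Spry4, the Sprouty-related genes Spred1 and Spred2, and the ETS transcription factors Etv4 and Etv5. All 10 passed the filter on low counts in each experiment.

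The tumours were grown in the livers of BALB/c mice from BNL-MEA, a liver cancer line of the mouse, so every group carries the same line in the same host strain. RNA sequencing of bulk tumour gave 32 libraries in 3 experiments, each with vehicle libraries of its own. The dose experiment holds 4 vehicle libraries, 3 with regorafenib at 5 mg/kg/day (low dose) and 3 with regorafenib at 20 mg/kg/day (high dose). The DC-101 experiment holds 4 vehicle libraries, 3 with low dose regorafenib and 3 with the VEGFR2 antibody DC-101 (800 µg into the peritoneum on days 1, 3 and 5). The anti-PD1 experiment holds 3 libraries each of vehicle, low dose regorafenib, anti-PD1 and regorafenib with anti-PD1 (combination). The labels give neither the sex nor the age of the mice. In the anti-PD1 experiment each library is a separate tumour, as the study describes it. For the other 2 experiments the sources used here do not say so, and their p-values measure the spread between libraries, which may be technical.

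Growth factor receptors activate RAS, which activates the RAF kinases, and these pass the signal through MEK to ERK. Active ERK then induces its own brakes: DUSP phosphatases remove activating phosphates from ERK and related kinases, and Sprouty and SPRED proteins act between the receptors, RAS and RAF. ETV4 and ETV5 are ETS factors that carry part of the transcriptional output of the pathway. The whole group is widely read as a measure of ERK activity. Regorafenib inhibits several receptor kinases and RAF kinases, and RAF inhibitors are also known to activate ERK in cells without mutant BRAF.

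Dusp6 lies at chr10:99263231-99267489, Dusp4 at chr8:34807297-34819894 and Dusp5 at chr19:53529109-53542431 (GRCm38, all on the plus strand). Etv5 lies at chr16:22381309-22439719 and Etv4 at chr11:101769742-101785371, both on the minus strand. Spry1 lies at chr3:37639947-37644598 and Spry2 at chr14:105891947-105896819 on the minus strand. Spred1 lies at chr2:117121374-117182279 and Spred2 at chr11:19924375-20024026. Dusp5 shares 547 exonic bases (22.12% of its exon length) with the antisense gene AC137853.2, and Spry1 shares 710 (24.43%) with Gm42922 on the opposite strand. The library kit keeps the strand, but which strand column was counted is not given in the sources used here, so the counts of these 2 genes may include reads of their partners.

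The 250 bases before a start of Dusp6 and of Etv5 are shown because these were the 2 members that were lower at the high than at the low dose past the test. Capitals mark GGAA, the core that ETS factors bind, read on either strand (as GGAA or TTCC). The sequences are those of RefSeq on GRCm38.p6 at chr10:99262981-99263230 (plus strand) and at chr16:22438369-22438618 (minus strand, 1 of 2 starts of Etv5), written from 5′ to 3′.
Dusp6: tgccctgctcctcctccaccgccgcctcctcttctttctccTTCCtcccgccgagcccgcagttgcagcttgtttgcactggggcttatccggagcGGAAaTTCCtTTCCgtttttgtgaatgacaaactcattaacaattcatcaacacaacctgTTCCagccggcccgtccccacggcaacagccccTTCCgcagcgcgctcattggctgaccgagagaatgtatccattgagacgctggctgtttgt
Etv5: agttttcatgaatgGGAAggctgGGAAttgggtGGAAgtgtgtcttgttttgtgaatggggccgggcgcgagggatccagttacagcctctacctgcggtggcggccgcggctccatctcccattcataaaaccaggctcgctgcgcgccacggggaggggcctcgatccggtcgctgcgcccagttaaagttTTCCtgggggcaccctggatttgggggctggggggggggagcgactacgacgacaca
The Dusp6 window held 6 cores and the Etv5 window held 4. At least as many were found in 8.69% and in 33.4% of the 32851 windows of RefSeq starts, and 93.4% of all windows held at least 1. The window of the other Etv5 start held 0. Of the 10 members, 7 had a window in the table (all but Dusp4, Spry4 and Etv4), and none of their 8 windows, from 250 bases before to 50 after the start, held any of 5 longer motifs on either strand. These were CCGGAAG (ETS, in 8.86% of all windows), TGANTCA (AP-1, 7.81%), TGACGTCA (CRE, 1.79%), and TGAATGAA (1.3%) and TGAATGGA (1.21%), which the repressor Capicua binds. The GGAA core, chosen after these 5 gave no match, lies within the first of them. A match is a description of letters, not of binding.

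Library totals ran from 16.8 M to 27.7 M counts, and every member had at least 11 counts in every library. Of 9 markers of liver epithelium and hepatoma, 8 averaged over 1 CPM (counts scaled to the library total) in each experiment, and Afp did not. Several libraries stood apart. In the anti-PD1 experiment, vehicle library 2 and regorafenib library 2 had the lowest Spred2 levels of all 32 libraries (3.88 and 3.76 as log2 CPM, against 4.75 to 6.14 in the rest), and also the smallest shares of mitochondrial counts (0.26% and 0.31%). The 3 anti-PD1 libraries had mitochondrial shares of 0.68%, 0.52% and 0.37%, and the 3 combination libraries 2.34%, 1.43% and 1.36%. In the dose experiment, high dose library 1 had a mitochondrial share of 5.37%, against 1.77% to 2.86% in the other 9.

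In vehicle-treated tumours, Dusp6 had the highest median level of the 10. As reads per kilobase of exon at a fixed depth (RPKM), the 11 vehicle libraries had a median of 34.3 for Dusp6 (lowest 25.8, highest 48.5), 21.9 for Dusp5 (9.27 to 38.0) and 20.8 for Spred1 (15.8 to 29.1). Etv5 was at 12.3 RPKM (3.61 to 17.4), Spred2 at 12 (3.16 to 14.3), Spry2 at 7.26 (4.45 to 21.7) and Etv4 at 7.05 (2.98 to 9.48). Spry4 had a median RPKM of 2.43 (0.736 to 5.43), Spry1 of 1.48 (0.727 to 2.95) and Dusp4 of 1.26 (0.648 to 4.99). These medians pool the vehicle libraries of 3 experiments. Within each experiment Dusp6 had the highest mean RPKM, Dusp5 and Spred1 came next and Spry4, Spry1 and Dusp4 were the lowest 3, but the order inside these sets and among the other 4 members differed: the mean of Spred2 was 13.5 ± 0.69 and that of Etv5 10.8 ± 2.18 (SD, n = 4) in the DC-101 experiment, where the medians above run the other way. The ranges of neighbours in this order overlap throughout, while every Dusp6 value lay above every value of Spry2 and of the members after it, and every Spry1 value lay below every value of Etv4 and of the members before it.

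**Figure D1:**
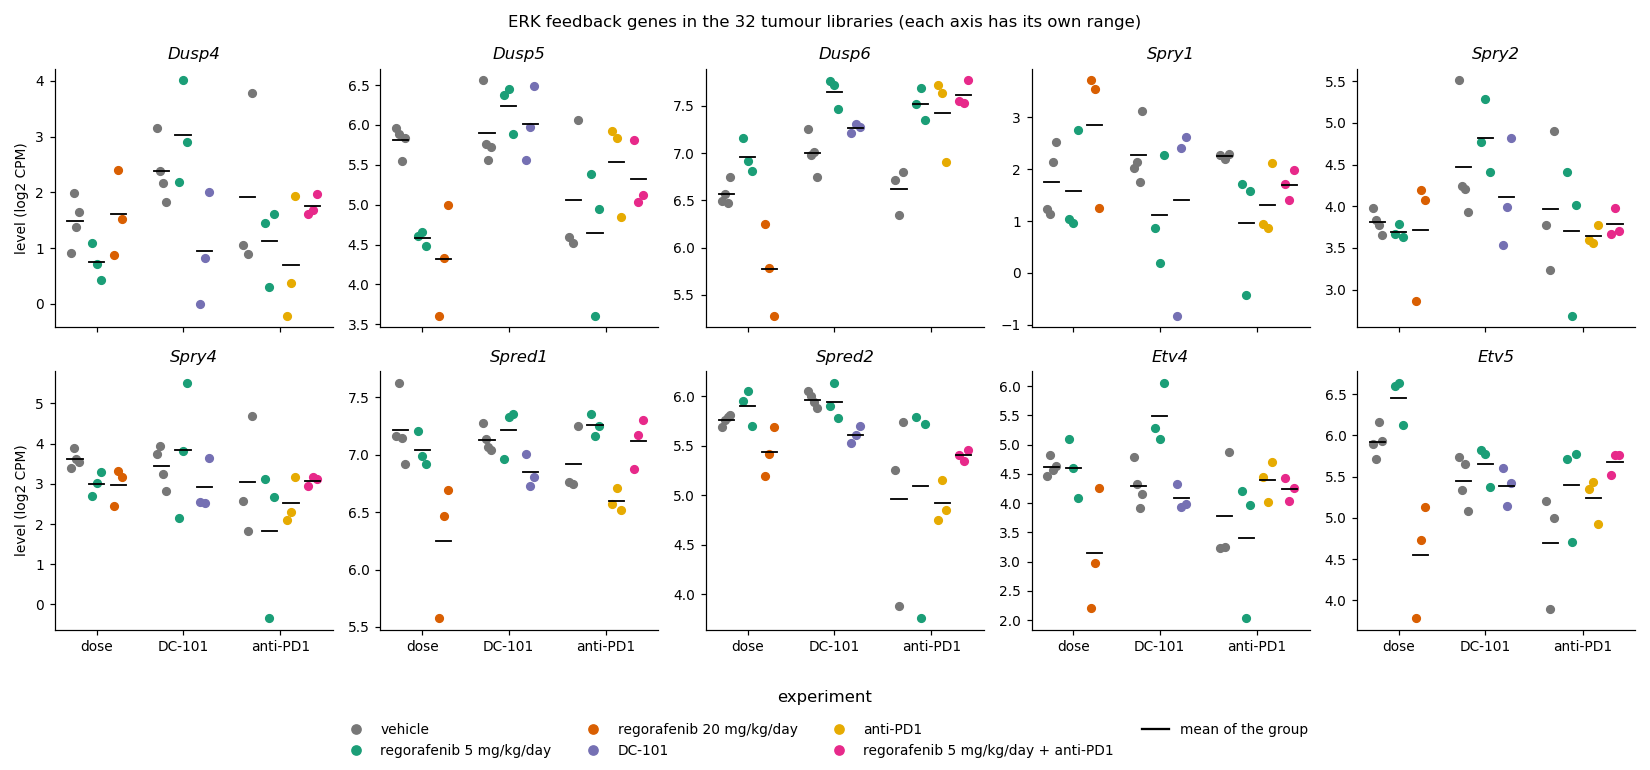
Level of each member (log2 CPM, vertical axis, with a range of its own in each panel) in every library, by experiment (horizontal axis) and group (colour), with a line at the mean of the group. Dusp6 lies above every vehicle library of the same experiment in all 9 low dose libraries and below all 4 in the 3 high dose libraries, and 2 libraries of the anti-PD1 experiment lie far below the rest in Spred2.

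Low dose regorafenib was given in all 3 experiments, which asks whether the same dose gives the same readout. Dusp6, a phosphatase selective for ERK, rose, and it was the only one of the 10 to pass the test over the experiments. In the dose experiment, Dusp6 was at 6.49, 6.57, 6.47 and 6.75 (log2 CPM) with vehicle and at 7.16, 6.92 and 6.81 with the low dose. In the DC-101 experiment it was at 7.25, 6.98, 7.01 and 6.75 with vehicle and at 7.76, 7.72 and 7.47 with the low dose. In the anti-PD1 experiment it was at 6.72, 6.34 and 6.80 with vehicle and at 7.52, 7.69 and 7.35 with the low dose. The treated libraries lay above the vehicle libraries without overlap in each of the 3 experiments, which was so for 30 of the 15429 genes tested in all 3 (0.194%).

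In the fit over the 3 experiments, Dusp6 was higher by 0.64 on the log2 scale (SE 0.10, edgeR, adjusted p = 0.00139, 9 libraries against 11), a fold of 1.56. The test called 276 of 15562 genes (1.77%) and 1 of the 10 members. The log2 change of Dusp6 was 0.40 (SE 0.21) within the dose experiment, 0.65 (SE 0.12) within that of DC-101 and 0.90 (SE 0.25) within that of anti-PD1. A test of the difference between experiments gave it an adjusted p of 0.63, and that test called 0% of genes (0 of 15562 by edgeR, with 1481 at an unadjusted p under 0.05 and 100 by DESeq2). Taken alone, no experiment called a member: edgeR called 0% of genes in the dose experiment, 0.0248% (4 of 16138) in that with DC-101 and 0% in that with anti-PD1, with 817, 2766 and 1964 genes at an unadjusted p under 0.05 and 85, 1097 and 425 called by DESeq2. DESeq2 called Dusp6 in 2 of them, with an adjusted p of 5.0e-05 (DC-101 experiment) and of 0.0293 (anti-PD1 experiment).

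Markers of endothelium moved with this comparison. Of 15 endothelial genes, 10 fell (median log2 change -1.21). Their mean log2 CPM was 4.21 to 5.02 with vehicle and 3.50 to 3.98 with the low dose in the dose experiment, 4.44 to 5.54 and 3.58 to 3.93 in the DC-101 experiment, and 4.25 to 4.78 and 2.91 to 3.88 in the anti-PD1 experiment. Of other markers, 2 of 12 macrophage genes (median log2 change 0.22), 1 of 5 B cell genes (median 1.0) and 1 of 20 hepatocyte genes (median 1.28) rose, and 10 T cell genes had a median of 0.70 with none called. Experiments of opposite direction are pooled here. The hepatocyte median was 1.47 (dose), 3.1 (DC-101) and -1.8 (anti-PD1), with 18 of the 20 genes below 0 in the last. The macrophage median was 0.75, -0.14 and -0.03 in the same order. The endothelial score separated the groups in each experiment, and with it as a covariate the log2 change of Dusp6 was 0.33 and did not pass (adjusted p = 1), nor did any other gene, against 276 without it. With the hepatocyte score in its place the log2 change was 0.66 (adjusted p = 0.00311). In bulk tissue, fewer cells of a type and less RNA per cell cannot be told apart. Without the DC-101 experiment the log2 change was 0.63 (adjusted p = 0.084, with 17 genes called in all), and over the 20 fits that left out 1 library it was 0.59 to 0.68 (adjusted p of at most 0.00565).

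Etv5 had a log2 change of 0.46 at the low dose over the 3 experiments (SE 0.17, unadjusted p = 0.0126, adjusted p = 0.167). Its changes were 0.54 (dose), 0.20 (DC-101) and 0.67 (anti-PD1) within the experiments. Without the 2 libraries of low Spred2, an alternative added after the data were seen, the log2 change of Etv5 was 0.43 and passed (adjusted p = 0.0447), and that of Dusp6 was 0.56 (adjusted p = 0.000948).

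The other 8 members did not pass at the low dose, and several differed in sign between experiments. Dusp5, a nuclear ERK phosphatase, was at 5.96, 5.89, 5.55 and 5.84 (log2 CPM) with vehicle in the dose experiment and at 4.61, 4.66 and 4.48 with the low dose. These groups did not overlap, yet with all groups of the experiment in the fit the log2 change of -1.23 (SE 0.28) had an unadjusted p of 0.00169 and an adjusted p of 0.574. It passed with DESeq2 (adjusted p = 0.0256) and when only the compared groups were fitted (adjusted p = 0.0257). In the DC-101 and anti-PD1 experiments, the log2 change of Dusp5 was 0.31 (SE 0.29) and -0.42 (SE 0.52). The difference between experiments had an unadjusted p of 0.0426 and did not pass (adjusted p = 0.516).

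Etv4 was at 4.79, 4.32, 3.92 and 4.16 (log2 CPM) with vehicle in the DC-101 experiment and at 5.29, 5.09 and 6.06 with the low dose. All 3 treated libraries lay above the 4 vehicle libraries, and the log2 change was 1.21 (SE 0.27, adjusted p = 0.107; DESeq2 adjusted p = 0.002). It was 0.03 (SE 0.43) in the dose experiment and -0.35 (SE 0.55) in the anti-PD1 experiment. The difference between experiments had an adjusted p of 0.557.

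Groups that did not overlap were found for 3 members in the dose experiment (Dusp5 and Spry4 lower, Dusp6 higher; 13.9% of all genes), for 2 in the DC-101 experiment (Dusp6 and Etv4 higher; 16.4%) and for 2 in the anti-PD1 experiment (Dusp6 higher, Spry1 lower; 14%). A count of 2 in 10 is near those shares. Over the experiments, the log2 changes of the other members were -0.39 for Dusp4, -0.43 for Dusp5, -0.68 for Spry1, -0.04 for Spry2, -0.22 for Spry4, 0.06 for Spred1, 0.10 for Spred2 and 0.34 for Etv4, with SEs of 0.11 to 0.48. The median over the 10 members was 0.01, beside 0.03 over all genes.

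**Figure D2:**
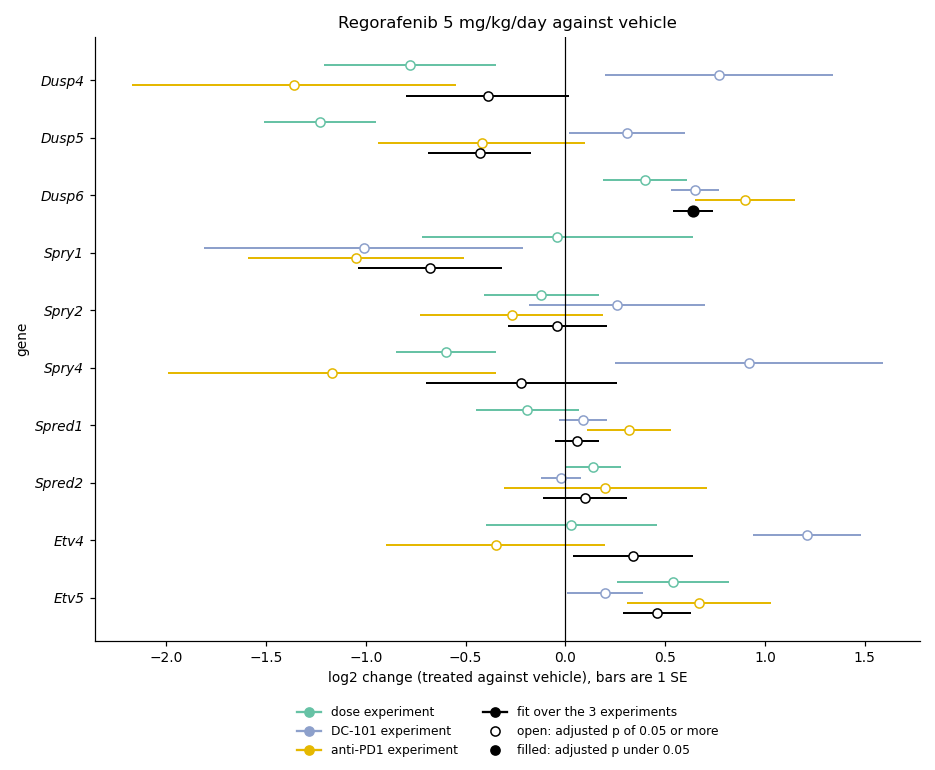
Log2 change (horizontal axis) of each member (vertical axis) at low dose regorafenib against vehicle, within each experiment and over the 3 experiments (colour), with bars of 1 SE and filled points for an adjusted p under 0.05. The point of Dusp6 over the 3 experiments, at 0.64, is the only filled one, and its changes within the experiments lie between 0.40 and 0.90.

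High dose regorafenib was given in the dose experiment alone. There Dusp5, Dusp6, Spred1 and Etv5 fell against vehicle and no member rose. The test called 2582 of 16525 genes (15.6%; 1455 higher and 1127 lower) and 4 of the 10 members. Groups did not overlap for 7 members, all lower (Dusp5, Dusp6, Spry4, Spred1, Spred2, Etv4 and Etv5), beside 28.3% of all genes in either direction. The median log2 change of the members was -0.68, beside 0.02 over all genes.

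Etv5 was at 5.89, 5.71, 6.16 and 5.93 (log2 CPM) with vehicle, at 6.60, 6.64 and 6.12 with the low dose and at 3.79, 4.73 and 5.13 with the high dose. All 3 high dose libraries lay below every other library of the experiment. The log2 change of Etv5 at the high dose was -1.28 (SE 0.29, adjusted p = 0.036). Dusp6 was at 6.25, 5.78 and 5.28 with the high dose, again below every vehicle and low dose library, with a log2 change of -0.75 (SE 0.21, adjusted p = 0.0471).

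Dusp5 was at 3.61, 4.33 and 5.00 (log2 CPM) with the high dose, below the vehicle libraries and on both sides of the low dose libraries (log2 change -1.39, SE 0.28, adjusted p = 0.0313). Spred1, which restrains the step from RAS to RAF, was at 7.16, 7.63, 7.15 and 6.92 with vehicle and at 5.58, 6.47 and 6.69 with the high dose (log2 change -0.92, SE 0.27, adjusted p = 0.049). The lowest of the 3 was library 1, which also had the highest mitochondrial share. The call of Spred1 was lost with relative log expression scaling (adjusted p = 0.0543) and with voom (adjusted p = 0.0563).

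Etv4 was at 4.46, 4.82, 4.56 and 4.63 (log2 CPM) with vehicle and at 2.20, 2.97 and 4.25 with the high dose. These groups did not overlap, but high dose library 3 lay close to vehicle and the log2 change of -1.24 (SE 0.44) missed the threshold (adjusted p = 0.0733), which it passed with DESeq2 (log2 change -1.19, adjusted p = 0.0368). Without that library the change was -2.03 (adjusted p = 0.00849), without high dose library 1 it was -0.84 (adjusted p = 0.196) and without high dose library 2 it was -1.03 (adjusted p = 0.199). Spry4, an inhibitor of receptor signalling, had a log2 change of -0.61 (SE 0.25) at the high dose and of -0.60 (SE 0.25) at the low dose, with adjusted p of 0.108 and 0.989. Spred2 had a log2 change of -0.32 (SE 0.14, adjusted p = 0.125).

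Spry1, Spry2 and Dusp4 had log2 changes at or above 0 at the high dose. Spry2 was at 0.01 (SE 0.29), which turned to -0.06 when libraries were scaled by total count, a scaling that moved the median of all genes to -0.13. Dusp4 was at 0.22 (SE 0.41, adjusted p = 0.713). Spry1 was at 1.32 (SE 0.67, adjusted p = 0.169), with high dose libraries at 3.71, 3.55 and 1.26 (log2 CPM) and vehicle libraries at 1.23, 1.13, 2.13 and 2.52. In Spry1, 2 of the 3 high dose libraries lay above the vehicle libraries and the other lay among them.

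Set directly against the low dose, the high dose gave lower Dusp6 and Etv5. The log2 difference was -1.15 for Dusp6 (SE 0.23, adjusted p = 0.0305) and -1.82 for Etv5 (SE 0.31, adjusted p = 0.0199), and these 2 members were among 697 of 16525 genes called (4.22%). Dusp6, Spred1, Spred2 and Etv5 were lower without overlap between the doses, beside 27.8% of all genes in either direction. The log2 difference was -0.16 for Dusp5 (SE 0.29, adjusted p = 0.722) and -1.27 for Etv4 (SE 0.47, adjusted p = 0.123). The plot of both doses has Dusp6 and Etv5 above 0 at the low dose and below 0 at the high dose.

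**Figure D3:**
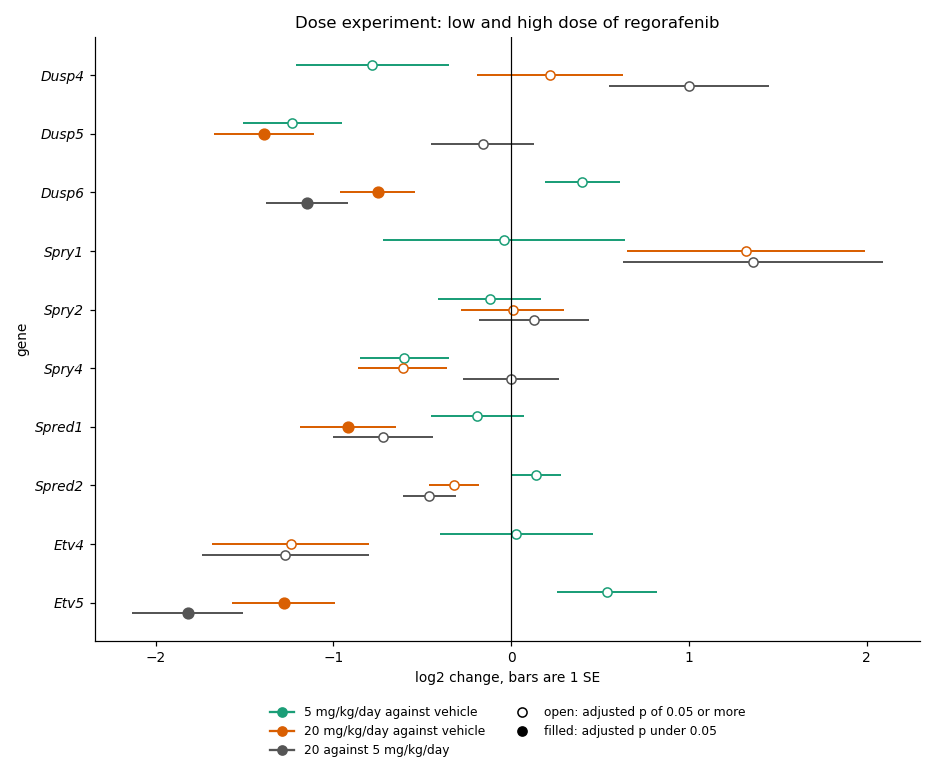
Log2 change (horizontal axis) of each member (vertical axis) in the dose experiment for the low dose against vehicle, the high dose against vehicle and the high against the low dose (colour), with bars of 1 SE and filled points for an adjusted p under 0.05. Dusp5, Dusp6, Spred1 and Etv5 are filled at the high dose, between -0.75 and -1.39, and Dusp6 and Etv5 are filled for the high against the low dose.

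The calls at the high dose lie close to the threshold. Leaving out any 1 of the 4 vehicle libraries, or high dose library 2, left 0 of the 10 members called, and the genes called in all were then 15 to 83 without a vehicle library and 537 without high dose library 2, against 2582 with all libraries. Leaving out high dose library 1 left 3 members among 956 genes, and leaving out high dose library 3 gave 7 among 7030. The members' counts thus moved with the number of genes called, while the log2 change stayed between -0.97 and -1.63 for Etv5 and between -0.60 and -1.01 for Dusp6. For the high against the low dose, 0 members were called without low dose library 1 or 2 (62 and 80 genes in all), 1 without low dose library 3 (284 genes) or high dose library 2 (573 genes), 2 without high dose library 1 (594 genes) and 5 without high dose library 3 (4488 genes).

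Markers of cell types and of proliferation differed between the high dose and vehicle libraries as well. The hepatocyte score (mean log2 CPM of 20 genes) was 12.17, 9.65 and 6.92 in high dose libraries 1, 2 and 3, against 4.88 to 7.94 with vehicle. Of the 20 genes 2 rose (median log2 change 3.82), and 19 were higher at an unadjusted p under 0.05 by edgeR. Of 12 macrophage markers, 9 fell (median log2 change -1.27), with scores of 5.59, 6.65 and 5.48 against 6.64 to 7.20. Of 10 proliferation genes 4 fell (median log2 change -1.33, with all 10 lower at an unadjusted p under 0.05), with scores of 4.75, 6.17 and 6.77 against 7.24 to 7.54. Of 10 T cell genes 5 rose (median log2 change 1.65), with scores of 1.24 to 2.7 against 0.14 to 1.10, and of 7 B cell genes 4 rose (median 3.93), with scores of 0.33 to 5.42 against -0.01 to 0.51. Of 9 genes of liver epithelium and hepatoma 3 rose (median 1.87), with scores of 4.49 to 5.44 against 3.03 to 3.79, and of 15 endothelial genes 2 fell (median -0.41), with scores of 2.99 to 4.87 against 4.21 to 5.02. All macrophage, hepatocyte and proliferation genes averaged over 1 CPM. At the low dose of the same experiment, the macrophage score was 7.73, 7.66 and 7.70, above each vehicle library.

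Among the 3 high dose libraries, Etv5, Etv4, Dusp5 and Spred1 were lowest where the hepatocyte score was highest, and Dusp6 was highest there. With that score as a covariate, no member was called against vehicle and 163 genes were, against 2582 without it. The log2 change was then -1.08 for Dusp6 (adjusted p = 0.0629), -0.83 for Etv5 (adjusted p = 0.1), -1.03 for Dusp5 (adjusted p = 0.0762), -0.60 for Spred1 (adjusted p = 0.269) and -0.70 for Etv4 (adjusted p = 0.301). With the endothelial score as a covariate (3460 genes called), Dusp5 and Etv5 stayed called, Dusp6 (-0.61, adjusted p = 0.106) and Spred1 (-1.03, adjusted p = 0.0518) were lost, and Etv4 (-1.82, adjusted p = 0.032) and Spry1 (2.23, adjusted p = 0.0341) passed. For the high against the low dose, Dusp6 stayed called by edgeR with the hepatocyte covariate (-1.4, adjusted p = 0.0121) and with the endothelial one (-1.21, adjusted p = 0.0257). Genes called in all were then 652 and 788. The part of macrophages, lymphocytes, proliferating cells, liver epithelium and the mitochondrial share in these falls was not tested.

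**Figure D4:**
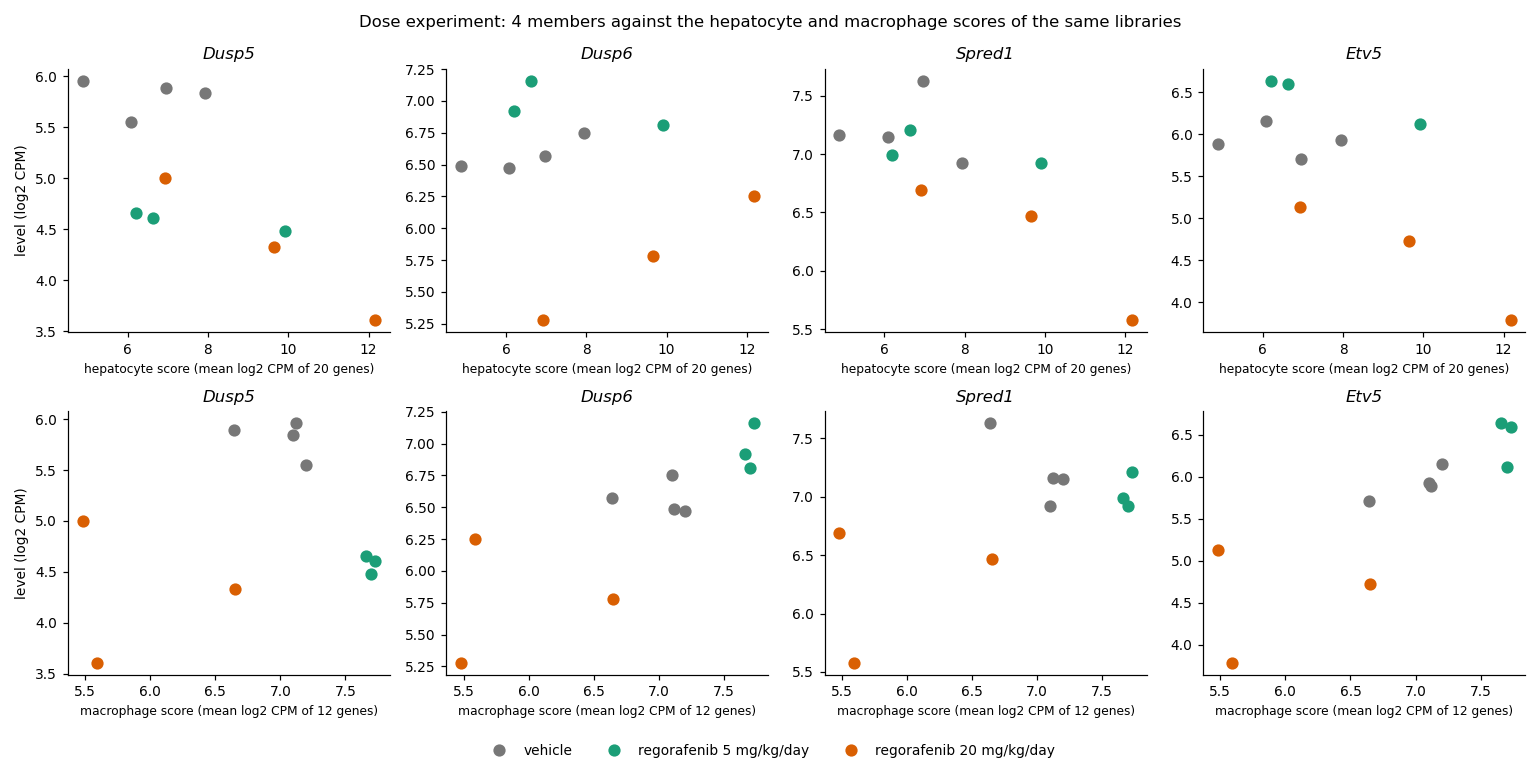
Level of the 4 members that fell at the high dose (log2 CPM, vertical axis) against the hepatocyte score (upper row) and the macrophage score (lower row) of the same library (mean log2 CPM of the list, horizontal axis), in the 10 libraries of the dose experiment (colour by group). The high dose libraries span hepatocyte scores of 6.92 to 12.17 and macrophage scores of 5.48 to 6.65, and along the hepatocyte score Dusp6 runs in the opposite order to the other 3 genes in these libraries.

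DC-101 blocks VEGFR2 and does not inhibit RAF, so its experiment sets the readout beside VEGFR2 blockade alone. With DC-101, edgeR called 0 members and 0 of 16138 genes (0%), with 2131 genes at an unadjusted p under 0.05 and 373 called by DESeq2, which called 0 members. Spred1 and Spred2 were lower without overlap (13.4% of all genes in either direction). Spred2 was at 6.05, 6.0, 5.94 and 5.88 (log2 CPM) with vehicle and at 5.53, 5.61 and 5.70 with DC-101, a log2 change of -0.35 (SE 0.10, adjusted p = 0.318), and Spred1 had one of -0.28 (SE 0.12, adjusted p = 0.369). Dusp6 was at 7.21, 7.31 and 7.28 with DC-101, below its 3 low dose libraries and above 3 of its 4 vehicle libraries. The highest vehicle library, at 7.25, lay among the DC-101 libraries. The log2 change of Dusp6 was 0.26 (SE 0.12, adjusted p = 0.394). The median log2 change of the 10 members was -0.32, beside -0.01 over all genes. The endothelial score was 3.44 to 4.39 with DC-101 and 4.44 to 5.54 with vehicle, and of the 15 genes 10 were lower at an unadjusted p under 0.05 and 0 after adjustment (median -1.3). The hepatocyte score was 1.97 to 9.95 with DC-101 and 0.22 to 6.94 with vehicle (median log2 change of the 20 genes 3.6, with 5 at an unadjusted p under 0.05). The part of either in these changes was not tested.

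Low dose regorafenib against DC-101 likewise gave 0% of genes called (0 of 16138 by edgeR, with 1364 at an unadjusted p under 0.05 and 203 by DESeq2). Dusp4, Dusp6, Spred2 and Etv4 were higher with regorafenib without overlap, 4 members beside 11.4% of all genes. Etv4 had the smallest p of the 10, with a log2 difference of 1.46 (SE 0.29, unadjusted p = 0.000736, adjusted p = 0.401), and DESeq2 called it (adjusted p = 0.00149). The log2 difference was 0.39 for Dusp6 (SE 0.13, adjusted p = 0.489) and 0.33 for Spred2 (SE 0.11, adjusted p = 0.481). It was 2.10 for Dusp4 (SE 0.64, adjusted p = 0.481), whose libraries were at 2.18, 4.01 and 2.91 (log2 CPM) with regorafenib and at 0.00, 0.83 and 2.01 with DC-101. The median log2 difference over the members was 0.38, with 1 of them (Spry1) below 0, beside a median of -0.01 over all genes.

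In the anti-PD1 experiment, edgeR called no member and 0% of genes for anti-PD1 alone, for the combination, and for the combination against anti-PD1. At an unadjusted p under 0.05 there were 2269, 1362 and 1443 of 16615 genes, and DESeq2 called 614, 150 and 210. Dusp6 had the smallest p of the 10 against vehicle with either treatment. It was at 7.72, 7.64 and 6.91 (log2 CPM) with anti-PD1 and at 7.55, 7.53 and 7.77 with the combination, and all 6 libraries lay above the 3 vehicle libraries. The log2 change of Dusp6 was 0.83 with anti-PD1 (SE 0.25, adjusted p = 0.249; DESeq2 adjusted p = 0.037) and 0.99 with the combination (SE 0.25, adjusted p = 0.449; DESeq2 adjusted p = 0.0235). These comparisons and that of low dose regorafenib, at 0.90 (SE 0.25), share the 3 vehicle libraries. Without the 2 libraries of low Spred2 the changes were 0.69, 0.85 and 0.63 in the same order.

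Cell markers differed in the same comparisons. The endothelial score was 3.90 to 4.12 with anti-PD1 and 3.59 to 4.01 with the combination, against 4.25 to 4.78 with vehicle, with 3 and 6 of the 15 genes lower at an unadjusted p under 0.05. The hepatocyte score was 4.57 to 6.13 with anti-PD1 and 6.52 to 9.37 with the combination, against 8.13 to 8.40 with vehicle, and with anti-PD1 18 of the 20 genes were lower at an unadjusted p under 0.05 (median log2 change -2.26). At the same unadjusted level, 4 of 7 neutrophil genes were lower (median -1.46) and 5 of 10 proliferation genes higher (median 0.64) with anti-PD1, and 3 of 10 T cell genes were higher with the combination (median 1.18). With the low dose in this experiment, 9 of 20 hepatocyte genes were lower and 1 higher at that level (median -1.8). There 4 of 7 neutrophil genes were lower (median -1.54) and 5 of 7 B cell genes higher (median 1.79). No gene of these lists passed after adjustment, and the part of these cells in the change of Dusp6 was not tested.

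Other members that did not overlap with vehicle were Spry1 and Spred1, lower with anti-PD1 (3 members with Dusp6, beside 16.6% of all genes), and Spry1, lower, and Etv5, higher, with the combination (3 with Dusp6, beside 17.7%). Spry1 was at 2.27, 2.20 and 2.29 (log2 CPM) with vehicle, at 0.95, 0.87 and 2.11 with anti-PD1 and at 1.71, 1.41 and 1.99 with the combination, so the vehicle libraries were close together and the treated ones spread below them. Etv5 was at 5.20, 3.90 and 5.00 with vehicle and at 5.52, 5.76 and 5.76 with the combination. Its log2 change was 0.88 (SE 0.36, adjusted p = 0.566), and without the 2 libraries of low Spred2, of which the lowest vehicle library is 1, it was 0.57 (adjusted p = 0.424).

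Against anti-PD1 alone, the combination had higher Spred1, Spred2 and Etv5 without overlap, beside 30.4% of all genes in either direction. The log2 differences were 0.53 for Spred1 (SE 0.21), 0.48 for Spred2 (SE 0.51) and 0.43 for Etv5 (SE 0.36), with adjusted p of 0.51, 0.817 and 0.778. The mitochondrial shares of these 2 groups did not overlap either, nor did their hepatocyte scores, both given above. At an unadjusted p under 0.05, 18 of 20 hepatocyte genes (median log2 difference 2.54), 6 of 10 T cell genes (median 1.87) and 5 of 7 B cell genes (median 2.01) were higher with the combination, and none after adjustment. The part of these in the differences was not tested. The log2 difference of Dusp6 was 0.16 (SE 0.25, adjusted p = 0.87).

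Vehicle library 3 of this experiment was the highest of the 3 in several members. It was at 3.78 in Dusp4 (against 1.05 and 0.90), at 6.06 in Dusp5 (against 4.59 and 4.52), at 4.70 in Spry4 (against 2.57 and 1.84) and at 4.88 in Etv4 (against 3.23 and 3.25), all as log2 CPM. Without it the log2 change of Dusp4 at the low dose in this experiment was 0.26 instead of -1.36, and that of Spry4 was 0.15 instead of -1.17. Neither had passed the test.

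Many of the members varied together from library to library within the groups. After the mean of each group was removed, the 45 pairs had a median Pearson's r of 0.47 over the 32 libraries (-0.37 to 0.81), and 36 were positive. Over all pairs of the 15429 genes tested in the 3 experiments the median r was -0.01, with 49.4% positive. In 15.2% of them and in 24 of the 45 pairs of members, r was at or above 0.45. That limit was taken from the members themselves, as the lowest r of their pairs that passed the test below. By a 2-sided permutation test within groups, 13 pairs passed after adjustment over the 45, all positive. The pair with the highest r was Dusp5 and Spry2 (r = 0.81, permutation p = 0.00083, adjusted p = 0.00934, Spearman's rho = 0.73, permutation p = 0.00145, adjusted p = 0.0163). Dusp4 and Spry2 had r = 0.76 (permutation p = 0.00026, adjusted p = 0.00465, rho = 0.73, permutation p = 0.00034, adjusted p = 0.013). Spred2 and Etv5 had r = 0.76 (permutation p = 0.00172, adjusted p = 0.0129, rho = 0.76, permutation p = 0.00097, adjusted p = 0.0145).

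No pair with Dusp6 passed. Over all libraries its 9 values of r were between -0.31 (with Etv4) and 0.08 (with Dusp5), but for several pairs these pool experiments in which r had opposite signs. In the dose and DC-101 experiments, r was -0.80 and 0.71 with Dusp5, -0.75 and 0.76 with Spry2, -0.71 and 0.74 with Etv5 and -0.59 and 0.64 with Spred2, and in the anti-PD1 experiment it was 0.34, 0.01, 0.37 and 0.11 with the same genes. The difference in r between experiments was not tested. Spry1 passed with no member either. Within the experiments taken separately, r had the same sign in all 3 for each of the 13 pairs, with Dusp5 and Spry2 at 0.81 (dose), 0.95 (DC-101) and 0.77 (anti-PD1). In the DC-101 experiment 3 of these pairs had low values, with r of 0.01 for Dusp5 and Etv4, 0.17 for Spry2 and Spry4 and 0.18 for Spry2 and Spred1. Of the 45 pairs, 1 passed within the DC-101 experiment and 0 within either of the others. Without the 2 libraries farthest from the median of the first gene of each pair, the 3 pairs of highest r, given first, had r of 0.73, 0.76 and 0.63. Extreme libraries of the second gene alone stayed in, and the pairs were not tested without the 2 libraries of low Spred2. Then 3 of the 13 pairs still passed (Dusp4 and Spry2, Spry2 and Spred2, Dusp5 and Spred2), and the other 10 had r of 0.45 to 0.73 (adjusted p of 0.0555 to 0.24). Both genes of a pair are read from the same bulk library, so its cell content and RNA quality are shared by the points; with the hepatocyte score regressed out 20 pairs passed.

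**Figure D5:**
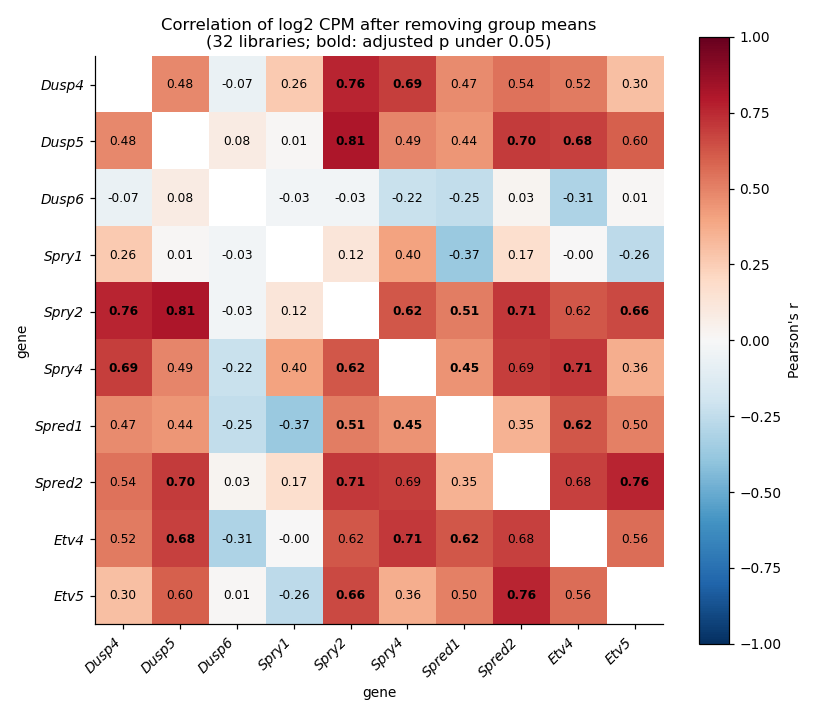
Pearson's r (colour and number) between each pair of members (both axes) over the 32 libraries after the mean of each group was removed, with bold numbers for an adjusted p under 0.05. The 13 bold pairs are all positive, between 0.45 and 0.81, and the row of Dusp6 lies between -0.31 and 0.08, where for several pairs values of opposite sign in the experiments are pooled.

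The genes whose levels ran most like each member over the same 32 libraries, with group means removed and out of 15429 genes, are given as a description. Dusp4 ran closest with the immediate early gene Fos (r = 0.90) and with Tnfsf11 (0.87), and Dusp5 with Fosl1 (0.88), like Fos a component of AP-1, and Slc29a2 (0.88). Dusp6 had Tuba4a (0.83) and Faim (0.80), Etv5 had Ccnd2 (0.90), a D-type cyclin, and Fhl3 (0.89), and Etv4 had Ankrd34a (0.88) and Pkn3 (0.88). Spry1 had Shroom2 (0.91) and Susd2 (0.90), Spry2 had Adam8 (0.88) and Abcc1 (0.85), and Spry4 had Col6a3 (0.93), a collagen chain, and Plxna4 (0.90). Spred1 had Rcn1 (0.87) and Chsy1 (0.87). Spred2 had Aqr (0.97) and Mast2 (0.97), which were also at their lowest of all libraries in the 2 libraries of low Spred2 (Aqr at 5.10 and 5.07, Mast2 at 4.37 and 4.0 as log2 CPM).

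Other genes of the pathway were followed in 3 lists. Of 20 further ERK output and feedback genes, 1 rose at the low dose over the experiments, beside 1.77% of all genes. It was Etv1, an ETS factor of the same subfamily as Etv4 and Etv5 (log2 change 0.60, SE 0.15, adjusted p = 0.0473), in a list with a median of 0.13. At the high dose 4 of the 20 fell and 1 rose, beside 15.6% of all genes in either direction, with a list median of -0.26. The immediate early gene Egr1 had a log2 change of -1.3 (SE 0.18, adjusted p = 0.0156), Ereg, a ligand of the EGF receptor family, of -1.55 (SE 0.27, adjusted p = 0.0242), Plaur, the urokinase receptor, of -1.3 (SE 0.30, adjusted p = 0.0365) and the AP-1 gene Junb, added after its values were seen to complete the 5 called, of -0.93 (SE 0.23, adjusted p = 0.0396). Ier3 rose by 1.41 (SE 0.24, adjusted p = 0.0228). It was also the 1 gene of this list that passed between the doses, higher at the high dose by 1.56 on the log2 scale (SE 0.26, adjusted p = 0.019). A count of 1 in 20 is near the 4.22% of all genes called between the doses.

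Of 24 genes of the cascade from RAS to ERK, 0 passed by edgeR at the low dose over the experiments (list median -0.01). At the high dose Araf, a RAF kinase, rose (log2 change 0.94, SE 0.18, adjusted p = 0.0303) and Rps6ka3, a kinase that ERK activates, fell by 0.94 (SE 0.25, adjusted p = 0.0432), with a list median of -0.12. These 2 of 24 are a smaller share than the 15.6% of all genes called. Against the low dose, Araf was higher (log2 difference 0.90, SE 0.20, adjusted p = 0.0439) and Rps6ka1, of the same family as Rps6ka3, was lower (log2 difference -1.16, SE 0.26, adjusted p = 0.0438), again 2 of 24, beside 4.22% of all genes.

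Of 11 receptor kinases that regorafenib is known to inhibit, 2 fell at the low dose over the experiments (list median -0.45), beside 1.77% of all genes. Flt1, a VEGF receptor of endothelium, fell by 1.61 on the log2 scale (SE 0.19, adjusted p = 0.000158) and Kit, the stem cell factor receptor, by 1.09 (SE 0.26, adjusted p = 0.0361). At the high dose Flt1 fell by 1.71 (SE 0.44, adjusted p = 0.0418) and Csf1r, the receptor of macrophage colony stimulating factor, by 1.68 (SE 0.33, adjusted p = 0.0308), with a list median of -0.75. A count of 2 in 11 is near the 15.6% of all genes. Csf1r was also lower at the high than at the low dose (log2 difference -2.41, SE 0.36, adjusted p = 0.0128). Flt1 and Csf1r are themselves genes of endothelium and of macrophages, whose marker lists moved in the same comparisons. By edgeR, no gene of the 3 lists passed in the DC-101 or anti-PD1 experiment taken alone.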

How the data were processed

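The deposited counts are whole reads per gene in 3 tables, 1 per experiment. Per the labels, the authors built TruSeq stranded mRNA libraries, trimmed reads with cutadapt 2.4 and aligned and counted them with STAR 2.7.2a on GRCm38, and the strand column used is not given in the sources used here. Symbols and exon lengths came from a Gencode annotation of the same build, which held 99.93% of the 54446 genes. Depth was 16.8 M to 27.7 M counts per library, so a member at 11 counts is read far less precisely than one at 5177.

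Each experiment was tested on the counts with edgeR 4.0.16 in R 4.3.3 (TMM scaling, filterByExpr with a minimum count of 10 and a minimum total of 15, robust quasi-likelihood F-test, 2-sided, Benjamini-Hochberg adjustment over all genes tested, threshold 0.05), with all groups of the experiment in the fit. The low dose was also fitted over the 3 experiments with experiment as a covariate. Levels are TMM log2 CPM with a prior count of 2, set side by side within an experiment. Pairs of members were tested with 1e+05 permutations of libraries within groups. No pair of libraries of a group agreed within sampling noise. The 10 members and the gene lists were chosen with earlier results of these data known. Genes outside the members are named where they passed the test in a pathway list (up to 4 per comparison, by p; Junb is an exception), or ran closest to a member (the 2 highest r). DESeq2 1.42.0, limma 3.58.1 (voom), other scalings, covariates and left-out libraries were alternatives. The scripts were tested on simulated data. Same-numbered libraries correlated over 0.1 in 2 of 9 pairs in the dose experiment, 4 of 9 in the DC-101 and 6 of 18 in the anti-PD1 experiment. The highest r was 0.56, 0.67 and 0.62 in the same order. The labels do not say whether numbers pair the samples, and they were not taken as pairs in the main fits.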

Additional observations from a re-analysis of the deposited data

How the results depend on the processing

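The rise of Dusp6 at the low dose over the experiments held under scaling by relative log expression or total count, without the filter, with DESeq2, with voom and with a replicate block (log2 change 0.64, adjusted p = 0.0144), and was lost with the endothelial covariate and without the DC-101 experiment, which gave 0 members called. Without the 2 libraries of low Spred2, 2 members were called. A replicate block took library numbers as pairs, although the labels do not say whether they pair the samples. With it, 0 members were called at the high dose and 0 for the high against the low dose. At the high dose, relative log expression and voom gave 3 members each, total count scaling and no filter 1 each, and the hepatocyte covariate and the fit of only the compared groups gave 0, and leaving out 1 library gave 0 to 7. For the high against the low dose, total count scaling gave 1, only the compared groups 0, and leaving out 1 library 0 to 5. The cause was not tested. Genes called at the high dose numbered 1 (replicate block), 4 (only the compared groups), 163 (hepatocyte covariate), 282 (total count), 416 (no filter), 1332 (voom), 2369 (relative log expression), 3460 (endothelial covariate) and 5275 (DESeq2), and 15 to 7030 with 1 library left out. For the high against the low dose they numbered 0 to 3059, and 62 to 4488. DESeq2 called 1 member for the low dose in the dose experiment (as did the fit of only the compared groups), 2 in the DC-101 and 1 in the anti-PD1 experiment, 1 for the low dose against DC-101, 1 each for anti-PD1 and the combination, 5 at the high dose and 2 for the high against the low dose. Genes called ranged from 0 to 85, 0 to 1097 and 0 to 425 for the low dose in the 3 experiments, 0 to 373 for DC-101, 0 to 203 against DC-101, 0 to 614, 0 to 150 and 0 to 210 for anti-PD1, the combination and the combination against anti-PD1, 0 to 892 over the experiments and 0 to 100 for the difference between them. Of the 45 pairs, 20 passed with the hepatocyte score regressed out and 4 without the 2 libraries farthest from the median of the first gene. Within the experiments 0 (dose), 1 (DC-101) and 0 (anti-PD1) passed.

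None of the log2 changes that turned in sign had passed the test. With the endothelial covariate they were 1.24 for Spry1 and -0.59 for Etv4 (low dose, dose experiment), 1.60 for Spry1, -0.01 for Spred1 and -0.30 for Etv5 (low dose, DC-101 experiment), 1.56 for Spry1 and 0.10 for Spry4 (DC-101), 0.04 for Spry1 (low dose against DC-101), 0.27 for Dusp5, 0.16 for Spry1 and 0.22 for Etv4 (low dose, anti-PD1 experiment), 0.04 for Spred2 (anti-PD1), 0.24 for Spry1 (combination), and 1.22 for Spry1 and -0.14 for Spred1 (over the experiments). With the hepatocyte covariate they were 0.04 for Spry2 (low dose, dose experiment), -0.30 for Spry1 (high dose), 0.04 for Dusp5 (between doses), -0.07 for Spred2 (low dose, anti-PD1 experiment) and 0.02 for Spry2 (over the experiments). With a replicate block they were 0.20 for Spry1 (low dose, dose experiment), -0.11 for Spry2 (high dose) and 0.02 for Spry4 (combination). With voom they were -0.03 for Spry2 (high dose), 0.03 for Spry4 (combination) and 0.04 for Spry2 (over the experiments), and with total count scaling -0.06 for Spry2 (high dose). Over the experiments they were 0.03 for Dusp4, 0.07 for Spry2, 0.19 for Spry4 and -0.05 for Spred1 without the anti-PD1 experiment, and -0.14 for Etv4 without the DC-101 experiment. Without the 2 libraries of low Spred2 they were -0.15 for Dusp5, -0.12 for Spred2 and -0.04 for Etv4 (combination).

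With 1 library left out, these log2 changes spanned 0. At the low dose in the dose experiment, Spry1 ranged from -0.89 to 0.29 and Etv4 from -0.26 to 0.27. At the high dose, Dusp4 ranged from -0.28 to 0.52 and Spry2 from -0.20 to 0.34, and between the doses Dusp5 from -0.60 to 0.14 and Spry2 from -0.10 to 0.46. At the low dose in the DC-101 experiment, Spry4 ranged from -0.30 to 1.43 and Spred2 from -0.10 to 0.06. With DC-101, Dusp5 ranged from -0.18 to 0.37, Spry1 from -0.83 to 0.19, Spry2 from -0.84 to 0.08 and Etv5 from -0.19 to 0.07, and against DC-101 Dusp5 from -0.03 to 0.48. At the low dose in the anti-PD1 experiment, Dusp4 ranged from -1.81 to 0.26, Dusp5 from -0.81 to 0.27, Spry2 from -0.65 to 0.34, Spry4 from -1.73 to 0.15, Spred2 from -0.17 to 0.62 and Etv4 from -0.71 to 0.43. With anti-PD1, Dusp4 ranged from -2.53 to 0.03, Spry2 from -0.80 to 0.11, Spry4 from -1.40 to 0.35 and Spred2 from -0.58 to 0.21. With the combination, Dusp4 ranged from -1.24 to 0.81, Dusp5 from -0.16 to 0.81, Spry2 from -0.65 to 0.26, Spry4 from -0.91 to 0.84, Spred2 from -0.10 to 0.69 and Etv4 from -0.06 to 1.02, and against anti-PD1 Dusp6 from -0.06 to 0.30. Over the experiments, Dusp4 ranged from -0.68 to 0.10, Spry2 from -0.14 to 0.13 and Spry4 from -0.69 to 0.18. Depth limits Dusp4, Spry1 and Spry4, whose lowest counts per library were 16, 11 and 13.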
